A study of Mus musculus with 14 samples.

Results

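The 10 genes described here carry out the urea cycle and the handling of ammonia that feeds it, and they were taken by gene name from the table of reads counted on 55487 genes. They were *Nags*, *Cps1*, *Otc*, *Ass1*, *Asl* and *Arg1* of the cycle itself, the mitochondrial carriers *Slc25a13* and *Slc25a15*, and *Glud1* and *Gls2*, which release ammonia from glutamate and glutamine. All 10 were found in the table, each with 1 row. Liver RNA had been sequenced from 14 male TALLYHO mice aged 8 to 12 weeks, an inbred strain used as a polygenic model of type 2 diabetes. Vehicle (water) was given to 7 mice and 20 mg/kg indole, a tryptophan metabolite made by gut bacteria, to the other 7, by oral gavage 2 times a day for 7 days. Both groups then went through metabolic tests and a further pair of doses before the right liver lobe was taken, so the libraries of both groups also follow those tests. Mice are named by their libraries, G1 to G14.

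The urea cycle turns toxic ammonia into urea and is nearly complete only in liver. N-acetylglutamate, made by *Nags*, switches on carbamoyl phosphate synthetase (*Cps1*) in mitochondria, and ornithine transcarbamylase (*Otc*) then forms citrulline there. In the cytosol, *Ass1* and *Asl* build argininosuccinate and split it into arginine and fumarate, and arginase (*Arg1*) releases urea and returns ornithine. The cycle is strongest in hepatocytes around the portal vein, and ammonia that escapes it is captured by glutamine synthetase (*Glul*) in a thin rim of cells around the central vein.

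The reads counted on genes came to 15390922 to 21060376 in a vehicle-treated mouse (median 18117524) and to 15197498 to 18464326 in an indole-treated mouse (median 17740715). In the 42 pairs of libraries within a group, none repeated another within sampling noise. The labels give no batch. Summed levels of 9 hepatocyte marker genes ranged from 83800 to 104800 CPM (reads on a gene scaled to library size) with vehicle and from 77450 to 109200 with indole. Levels below are CPM after TMM normalisation, which rescales each library so that most genes stay level, and are means ± SD over 7 mice unless stated. TMM factors ranged from 0.931 to 1.08, and 2 mice of each group (G1, G4, G2 and G3) had the highest.

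Transcript levels of the urea cycle genes differed little between indole-treated and vehicle-treated mice. With edgeR's quasi-likelihood test over the 12653 genes with enough reads, all 10 members were tested, 8 were lower and 2 higher in the indole group, and their median log2 fold change was −0.02. Over all genes the median was 0.00, and 48.7% were lower. The log2 fold changes ranged from −0.15 for *Nags* to 0.04 for *Glud1*. *Nags* was the 1 member of 10 with an unadjusted *p* below 0.05, against 3.81% of all genes. No member had a Benjamini–Hochberg adjusted *p* below 0.05 (lowest 0.998), nor did any of the 12653 genes, while DESeq2 on the same genes called 1 gene, not a member. Over all alternatives tried, the lowest adjusted *p* of a member was 0.717 (*Nags*). An exact permutation test with all 3432 relabellings gave 531 genes, or 4.2%, an unadjusted *p* below 0.05, again with *Nags* as the 1 member among them.

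The intervals show how large a difference these mice could still hold. Every member's 95% confidence interval lay within ±0.5 on the log2 scale. The lowest bound was −0.36 (*Cps1*, a change of −22.3%) and the highest was 0.30 (*Asl*, a change of 23.2%). Differences inside those bounds could not be resolved with 7 mice per group. How many members were lower depended on the mice included. Of 10, 3 were lower without G2, 4 without G3, 5 without G11 and 5 without both G8 and G11. When each mouse was left out in turn the count ranged from 3 to 9.

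**Figure D1:**
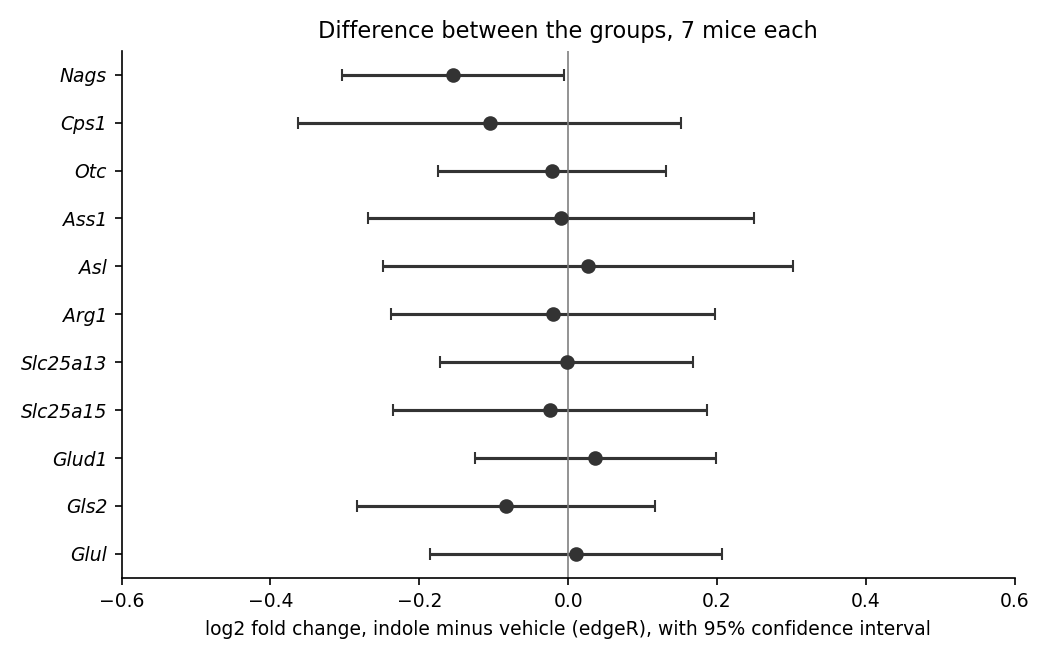
The log2 fold change of each member and of *Glul* (indole minus vehicle, points) with its 95% confidence interval (bars), from edgeR with 7 mice per group. The interval of *Nags* ends just below 0, and those of the other 9 members and of *Glul* span 0.

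*Nags* (ENSMUSG00000048217, GRCm38 chr11:102145513-102149477, plus strand) was the member with the fewest reads, also per length. Its level ranged from 70.0 CPM to 84.1 CPM (median 76.6) in the vehicle-treated mice and from 58.8 CPM to 79.6 CPM (median 71.3) in the indole-treated mice. Of the 7 indole-treated mice, 6 lay below the vehicle median, and the groups overlapped. The means were 77.0 ± 4.70 CPM and 69.2 ± 7.02 CPM, a log2 fold change of −0.15 (SE 0.07) or a change of −10.2%, with a 95% interval from −19.0% to −0.392%. The unadjusted *p* was 0.0426 in edgeR and 0.0315 in the exact permutation test, and the adjusted *p* was 0.998 in both. Without G2, the lowest mouse, the log2 fold change was −0.12 with an unadjusted *p* of 0.11 in edgeR, and leaving out any of 9 of the 14 mice took that *p* above 0.05. The gene held 941 to 1707 reads per mouse. The antisense gene *Gm11586* overlaps it and held 2.52% as many reads. The libraries were strand-specific, but whether strand was used in counting is not given in the sources used here.

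RefSeq promoter windows were found for 6 of the 10 members. Stretches of 4 of them are printed from build GRCm38.p6, 5′ to 3′ on the gene's strand. Each is the longest run before the RefSeq start that holds no annotated exon. The runs cover bases 250 to 1 before that start in *Nags* and *Otc*, 250 to 64 in *Ass1* and 99 to 1 in *Slc25a15*. These 4 genes include the member with the lowest *p* (*Nags*), members of the most closely matched pairs (*Ass1* and *Slc25a15*) and the member with the smallest fold between mice (*Otc*). Capitals mark GGGCGG, the GC box, on either strand.
Nags, chr11:102145263-102145512, plus strand: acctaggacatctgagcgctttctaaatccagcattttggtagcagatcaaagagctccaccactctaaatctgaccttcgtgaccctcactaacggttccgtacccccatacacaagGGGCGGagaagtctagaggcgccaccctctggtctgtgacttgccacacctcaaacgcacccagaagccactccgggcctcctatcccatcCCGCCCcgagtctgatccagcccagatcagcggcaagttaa
Otc, chrX:10252055-10252304, plus strand: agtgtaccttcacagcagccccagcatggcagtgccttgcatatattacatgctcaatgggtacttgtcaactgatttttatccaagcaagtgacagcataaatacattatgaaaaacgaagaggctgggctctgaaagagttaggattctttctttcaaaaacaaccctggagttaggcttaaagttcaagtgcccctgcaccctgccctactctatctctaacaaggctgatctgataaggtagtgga
Ass1, chr2:31470020-31470206, plus strand: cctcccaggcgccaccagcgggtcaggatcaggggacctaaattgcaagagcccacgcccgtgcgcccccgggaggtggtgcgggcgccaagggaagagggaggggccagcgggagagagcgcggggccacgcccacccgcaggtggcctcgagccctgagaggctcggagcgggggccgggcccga
Slc25a15, chr8:22398622-22398720, minus strand: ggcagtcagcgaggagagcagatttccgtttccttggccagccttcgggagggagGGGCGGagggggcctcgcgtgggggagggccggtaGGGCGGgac
GC content was 43.6% in the stretch of *Otc*, 55.6% in that of *Nags*, 71.7% in that of *Slc25a15* and 75.4% in that of *Ass1*. A GC box lay at 132 and, on the opposite strand, 41 bases before the start of *Nags*, where 32.7% of all windows over the same positions held at least 1. In *Slc25a15* the GC boxes lay at 44 and 9 bases, where 24.6% of windows held 1. No match was found in any of the 4 stretches for TATAAA (the TATA box), CCAAT, TGACGTCA (the cyclic AMP response element) or CACGTG (a form of the E-box). All were searched on both strands, and other forms of these elements, such as other E-boxes, were not searched. The bases between the *Ass1* stretch and its RefSeq start, and those upstream of the *Slc25a15* stretch, were not searched.

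*Cps1* (ENSMUSG00000025991, chr1:67123026-67231259, plus strand), the gene of the first and rate-setting step, had the lowest bound of the 95% intervals. Its level ranged from 4945 CPM to 6883 CPM (median 5235) with vehicle and from 3661 CPM to 7302 CPM (median 5170) with indole. Both the lowest and the highest of the 14 mice were indole-treated, G2 and G14. The means were 5574 ± 698 CPM and 5180 ± 1187 CPM, and the log2 fold change was −0.11 (SE 0.12, edgeR adjusted *p* 0.998).

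*Otc* (ENSMUSG00000031173, chrX:10252305-10321024, plus strand), whose product makes citrulline, had the smallest fold between the highest and the lowest of the 14 mice, at 1.32. The level was 560 ± 49.3 CPM in the vehicle group (487 to 639, median 550) and 551 ± 39.2 CPM in the indole group (483 to 604, median 545). These ranges overlapped over nearly their whole extent, and the 95% interval of the difference ran from −11.4% to 9.52%.

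*Ass1* (ENSMUSG00000076441, chr2:31470207-31520672, plus strand), which joins citrulline to aspartate, was at 5178 ± 719 CPM in the vehicle group (4283 to 6551, median 4963) and at 5145 ± 1077 CPM in the indole group (3250 to 6649, median 5283). The log2 fold change was −0.01 (SE 0.12), and the indole group held both extremes, G2 and G5. The count of this gene is uncertain, because the processed pseudogene *Gm5424* (chr10:62071123-62072362) is nearly the same sequence. An alignment of 1240 bases to the *Ass1* transcript of 1696 bases had 6 differences and no gap, an identity of 99.5%. The aligned stretch of 60 bases with the most differences is printed from the GENCODE transcripts, with the 2 differing bases in capitals, to show how alike the copies are.
Ass1, transcript bases 586 to 645: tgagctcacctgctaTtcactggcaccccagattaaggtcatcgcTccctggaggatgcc
Gm5424, transcript bases 384 to 443: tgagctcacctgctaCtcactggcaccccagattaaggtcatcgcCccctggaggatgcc
Counted from 1 at the 5′ end of the printed stretch, the differences were T16C and T46C, with the base of *Ass1* first. *Gm5424* held 25.6% as many reads as *Ass1* over the 14 libraries. In each mouse it took a like part of the reads on both genes, from 19.5% to 20.9% in the vehicle group and from 19.7% to 21.5% in the indole group. With its reads added to those of *Ass1*, a step chosen after seeing the data, the means were 6482 ± 887 CPM and 6479 ± 1346 CPM and the log2 fold change was 0.00 (SE 0.12, edgeR adjusted *p* 0.999).

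*Asl* (ENSMUSG00000025533, chr5:130011258-130029247, minus strand), which splits argininosuccinate, had the widest spread, the highest mouse being at 2.09 times the lowest. Its level was 1176 ± 158 CPM in the vehicle group (1013 to 1428, median 1133) and 1198 ± 272 CPM in the indole group (729 to 1522, median 1148). The log2 fold change was 0.03 (SE 0.13), and it turned negative on library totals (−0.01), under limma voom with quality weights (−0.01) and with 1 surrogate variable (−0.01). *Arg1* (ENSMUSG00000019987, chr10:24915221-24927484, minus strand), the last step, was at 1590 ± 163 CPM in the vehicle group (1380 to 1807, median 1536) and at 1567 ± 280 CPM in the indole group (1203 to 1899, median 1478). The vehicle range of both genes lay inside the indole range.

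Neither carrier of the inner mitochondrial membrane passed the test between groups. *Slc25a13* (ENSMUSG00000015112, chr6:6041218-6217173, minus strand), the aspartate and glutamate carrier citrin that supplies aspartate to *Ass1*, was at 322 ± 15.7 CPM in the vehicle group (310 to 355, median 314) and at 322 ± 44.6 CPM in the indole group (277 to 385, median 312). Its log2 fold change of −0.0022 (SE 0.08) was the smallest of the 10, and its sign differed between scalings (0.0027 with RLE). *Slc25a15* (ENSMUSG00000031482, chr8:22375551-22398597, minus strand), which carries ornithine in and citrulline out, was at 648 ± 62.4 CPM in the vehicle group (566 to 727, median 655) and at 637 ± 108 CPM in the indole group (474 to 777, median 644). The indole group spanned the whole vehicle range for both carriers.

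The enzymes that release ammonia for *Cps1* also overlapped between groups. Glutamate dehydrogenase (*Glud1*, ENSMUSG00000021794, chr14:34310727-34345265, plus strand) was at 1230 ± 65.6 CPM in the vehicle group (1131 to 1319, median 1249) and at 1262 ± 142 CPM in the indole group (1057 to 1457, median 1247), a log2 fold change of 0.04 (SE 0.08). Liver glutaminase (*Gls2*, ENSMUSG00000044005, chr10:128194457-128210004, plus strand) was at 695 ± 56.8 CPM in the vehicle group (619 to 769, median 715) and at 656 ± 104 CPM in the indole group (481 to 780, median 677), a log2 fold change of −0.08 (SE 0.10). Of the 7 indole-treated mice, 5 were below the vehicle median for *Gls2*. The gene overlaps *Spryd4* on the other strand, which held 3.44% as many reads.

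Glutaminase and glutamine synthetase face each other across the liver lobule, and their ratio within a library does not depend on scaling. *Glul* was at 527 ± 54.7 CPM in the vehicle group (474 to 607, median 512) and at 531 ± 77.7 CPM in the indole group (427 to 619, median 560). The log2 ratio of *Gls2* to *Glul* was 0.40 ± 0.16 in the vehicle group (0.18 to 0.62) and 0.30 ± 0.37 in the indole group (−0.36 to 0.70). The difference was −0.10, with a two-sided exact permutation *p* of 0.555 (7 mice per group). G2 had the lowest *Gls2* and the highest *Glul* of all mice, and without it the difference was 0.01.

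**Figure D2:**
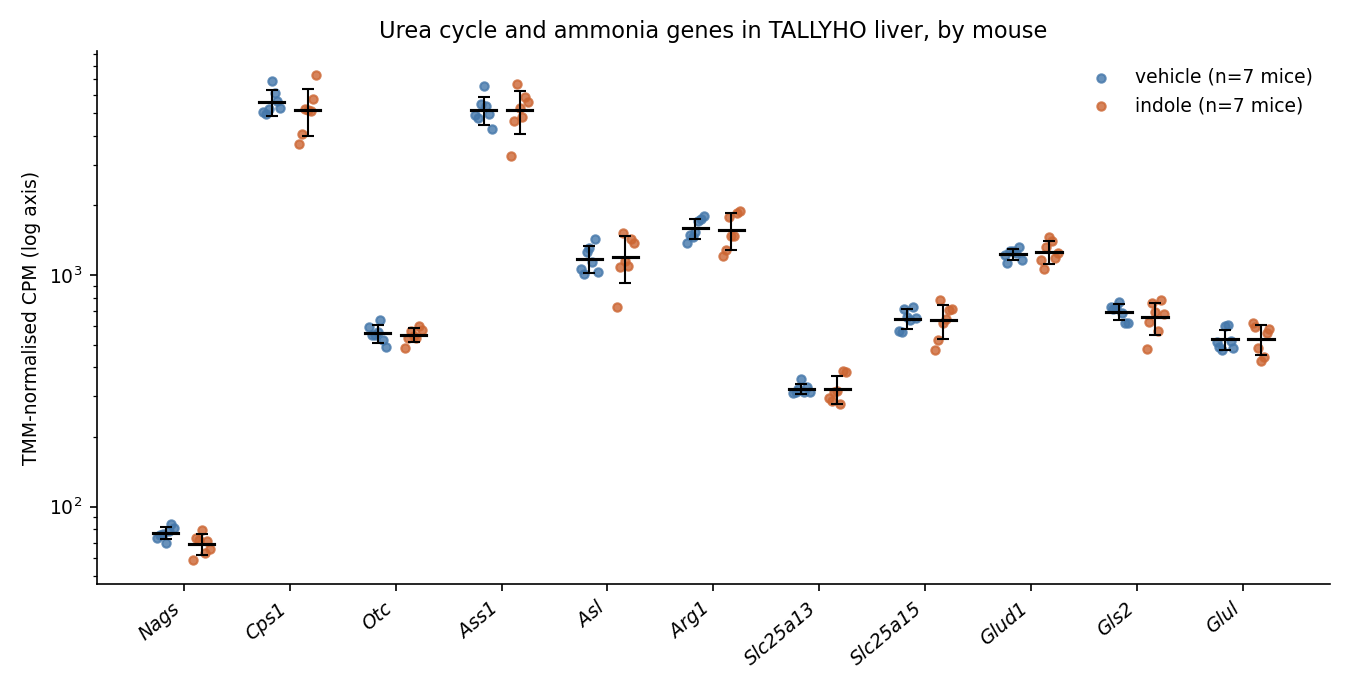
TMM-normalised CPM (log axis) of the 10 members and *Glul* in each vehicle-treated and indole-treated mouse (points), with the mean (line) and SD (bars) of each group of 7. The groups overlap for every gene, and the levels run from about 77.0 CPM for *Nags* to 5574 CPM for *Cps1* in the vehicle group.

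Per kilobase of gene model, as the table gives its length, the most abundant member was *Ass1*. It was at 2145 ± 298 CPM per kb in the vehicle group, reads on its pseudogene not included. *Cps1* followed at 1003 ± 126 and *Arg1* at 713 ± 73.0, and neither overlapped its neighbour in that group. *Glud1* (292 ± 15.6) and *Asl* (243 ± 32.6) overlapped, as did *Asl* and *Gls2* (200 ± 16.4). *Otc* (132 ± 11.6) and *Slc25a15* (115 ± 11.1) overlapped as well, *Otc* being higher in 5 of 7 vehicle-treated and 6 of 7 indole-treated mice. *Slc25a13* stood at 84.8 ± 4.13 CPM per kb and *Nags* at 27.1 ± 1.66, below all others in every mouse. *Nags*, which makes the activator of *Cps1*, was therefore lowest of the 10 and *Cps1* next to highest. Together the 10 members took between 1.57% and 1.98% of all reads counted on genes with vehicle (median 1.70%) and between 1.27% and 1.90% with indole (median 1.61%).

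The members' levels spread widely between mice of the indole group. G2, an indole-treated mouse, had the lowest level of all 14 mice for 8 of the 10 members. Relative to the vehicle mean its log2 levels ranged from −0.69 (*Asl*) to −0.09 (*Glud1*), with a median of −0.43. G3, also indole-treated, was below the vehicle mean for all 10 members (median −0.17). At the other end, G12 and G14 of the indole group had medians of 0.15 and 0.13, and G9 had the highest median of the vehicle group at 0.09. The coefficient of variation was larger in the indole group for 9 of 10 members, with a median of 16.4% against 9.22% in the vehicle group. Without G2 it was larger for 8 of 10, with a median of 13.5%. The difference in spread was not tested. The members' mean standardised level over 14 mice moved with that of the 15 periportal markers other than *Gls2* (*r* 0.845, rho 0.574). It also moved with substrate supply (*r* 0.918, rho 0.873) and amino acid nitrogen release (*r* 0.90, rho 0.855). The nitrogen release list shares *Sds*, *Hal* and *Uroc1* with the periportal list. Other lists ranged from an *r* of −0.46 (stellate and fibroblast markers) to 0.657 (plasma membrane transport, rho 0.314). Among them were regulators of the cycle (*r* 0.07), pericentral markers (*r* 0.03) and hepatocyte markers (*r* 0.498). The members' level moved against the number of genes detected (*r* −0.65, rho −0.68). All these values are a description, and the part of these measures in the spread was not tested.

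**Figure D3:**
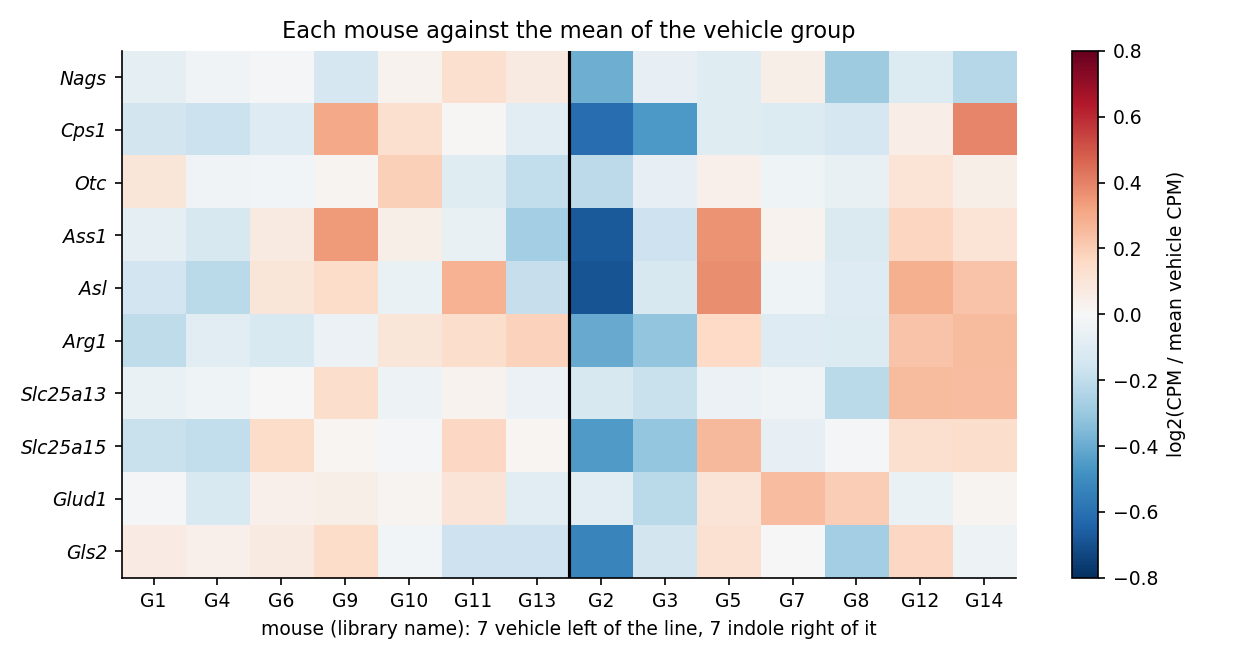
The log2 of each mouse's CPM over the mean vehicle CPM for the 10 members (rows), with the 7 vehicle-treated mice left of the line and the 7 indole-treated mice right of it. Blue cells are lower and red cells higher, and G2 is blue throughout, down to −0.69 for *Asl*.

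Levels of the members were correlated across the 14 mice. Over the 45 pairs, Pearson *r* of log2 CPM across 14 mice was positive for all 45, from 0.03 to 0.90 with a median of 0.53. By a permutation test with 100000 resamples, 15 pairs had a Benjamini–Hochberg adjusted *p* below 0.05 over the 45, and 12 had one by Spearman's rho. The count was also 15 for deviations from the group means. The closest pair was *Asl* and *Slc25a15* (*r* 0.90, rho 0.85, permutation *p* 2e-05 and 0.00017, adjusted *p* 0.0009 and 0.00382), with an *r* of 0.81 among vehicle-treated and 0.93 among indole-treated mice. Within the groups of 7 the correlations were unlike, a difference that was not tested. Among vehicle-treated mice 14 of 45 pairs had a negative *r*, with a median of 0.26 and a lowest value of −0.93 (*Nags* and *Gls2*), whereas among indole-treated mice, G2 included, 1 pair was negative and the median was 0.73. *Ass1* and *Asl*, which act in succession, followed (*r* 0.89 over 14 mice, 0.58 with vehicle and 0.98 with indole, rho 0.88, permutation *p* 9e-05 for both, adjusted *p* 0.0015 and 0.00382). *Ass1* and *Gls2* had an *r* of 0.87 (0.71 with vehicle and 0.95 with indole, rho 0.78, permutation *p* 0.0001 and 0.00174, adjusted *p* 0.0015 and 0.0196). *Arg1* and *Slc25a15* had an *r* of 0.83 (0.48 with vehicle and 0.94 with indole, rho 0.67, permutation *p* 0.0002 and 0.00957, adjusted *p* 0.00225 and 0.0359). No pair that included *Nags* or *Glud1* passed in Pearson's *r*. The median *r* of a pair with *Nags* was 0.27 and that of a pair with *Glud1* was 0.23, against 0.71 for pairs with *Cps1* or with *Asl*.

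This covariation rested in part on G2 and on the scaling. When the 2 mice farthest from the median of the first gene of a pair were left out, G2 among them for each pair described here, the median *r* was 0.36 and no pair passed. In these 12 mice *r* was 0.79 for *Asl* and *Slc25a15*, 0.69 for *Ass1* and *Asl*, 0.71 for *Ass1* and *Gls2* and 0.75 for *Arg1* and *Slc25a15*. Without G2 alone, 5 pairs passed and the median *r* was 0.34. On library totals in place of TMM, 4 pairs passed, which were the same 4 pairs named above, with *r* between 0.71 and 0.86, and the median *r* was 0.27 with 33 of 45 positive. The mean standardised level of the members had an *r* of −0.77 with the TMM factor (rho −0.78), and of −0.33 when computed on library totals. The part of scaling in the covariation was not tested further.

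**Figure D4:**
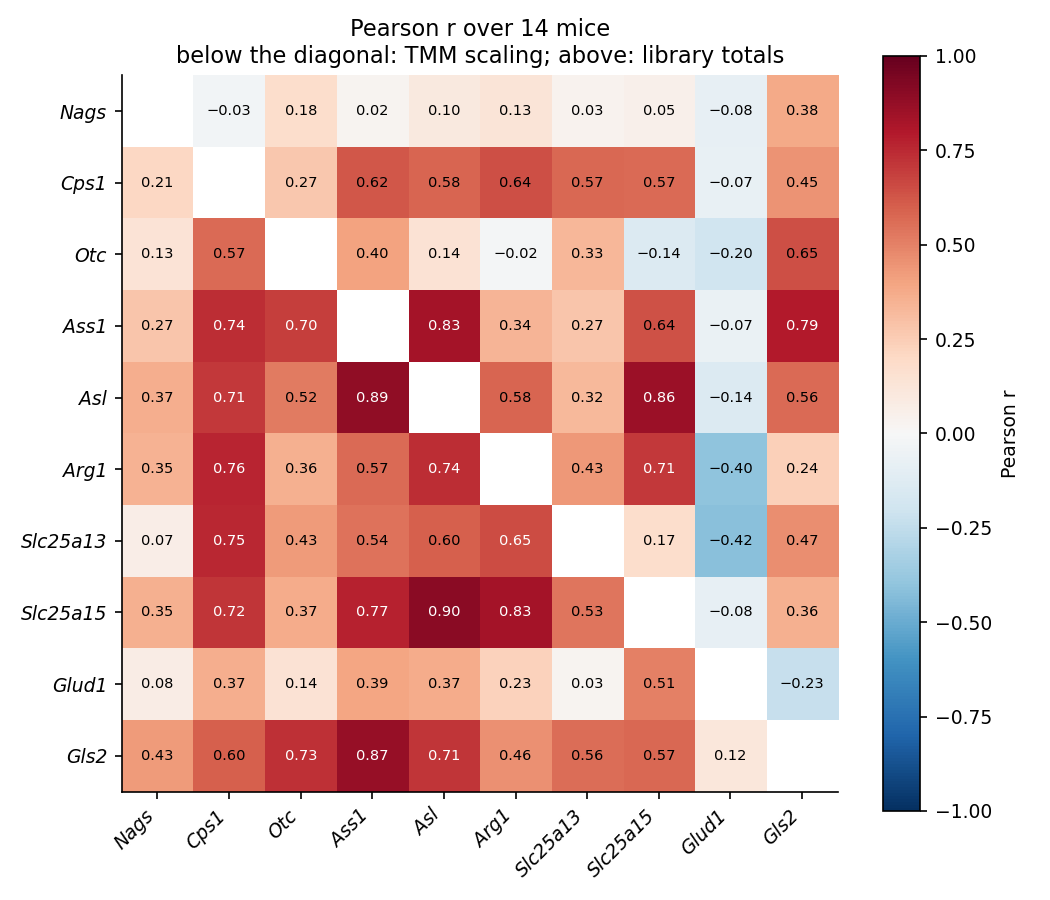
Pearson *r* of log2 CPM over 14 mice for each of the 45 pairs of members, on TMM-normalised values below the diagonal and on library totals above it. The darkest cells below the diagonal are *Asl* with *Slc25a15* (0.90), *Ass1* with *Asl* (0.89), *Ass1* with *Gls2* (0.87) and *Arg1* with *Slc25a15* (0.83). *Glud1* stays at or below 0.51 there and is negative with every other member above the diagonal.

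The genes whose pattern was most like the mean standardised level of the 10 members were listed as a description, since they were picked for their *r* out of 12643 genes. The median *r* of those genes was −0.03. *Etnk2*, an ethanolamine kinase, had an *r* of 0.95 over 14 mice (0.89 without G2 and G3, 0.92 on library totals). *Car14*, a carbonic anhydrase, had 0.94 (0.85 and 0.80), and *Gm5424*, the pseudogene of *Ass1*, had 0.93 (0.86 and 0.84). *Aass*, which begins lysine breakdown, had 0.92 (0.80 and 0.89), and *Kynu*, the kynureninase of tryptophan breakdown, had 0.92 (0.81 and 0.80). None of these 5 genes passed the test between groups, the largest log2 fold change being −0.13 for *Aass* (edgeR adjusted *p* 0.998).

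Genes around the cycle were compared in lists written with earlier results of these data known, and no gene of any list had an adjusted *p* below 0.05. Substrate supply (transaminases, mitochondrial carbonic anhydrases, malate and fumarate enzymes) had 14 of 16 genes tested, 6 higher and 8 lower in the indole group, none with an unadjusted *p* below 0.05 and a median log2 fold change of −0.02. Its gene with the highest CPM, the cytosolic malate dehydrogenase *Mdh1*, was at 796 ± 80.5 CPM with vehicle and 831 ± 113 CPM with indole. Enzymes that release nitrogen from amino acids had 34 of 36 tested, 14 higher and 20 lower, none below 0.05 and a median of −0.02. The one with the highest CPM, *Gnmt*, which methylates glycine, was at 3388 ± 454 CPM and 3639 ± 678 CPM.

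The list for glutamine synthesis and ammonia scavenging around the central vein had 10 genes, 5 higher and 5 lower, with a median of −0.03. It also held *Rnf43*, *Lgr5* and *Axin2*, which do neither task. It overlaps the pericentral markers below in *Glul*, *Oat*, *Slc1a2*, *Rhbg*, *Lgr5*, *Axin2* and *Slc13a3*, so the lists are not separate. *Slc38a3*, a glutamine transporter, had the highest CPM of this list, at 3151 ± 209 CPM with vehicle and 3000 ± 352 CPM with indole. Arginine, ornithine and polyamine metabolism had 15 of 18 tested, 10 higher and 5 lower, with a median of 0.02 that was −0.0045 on library totals, and *Oaz1*, the inhibitor of ornithine decarboxylase, was at 368 ± 25.2 CPM and 390 ± 42.5 CPM. Transport of amino acids and urea across the plasma membrane had 12 of 14 tested, 5 higher and 7 lower, with a median of −0.07. The neutral amino acid transporter *Slc38a4* was at 1390 ± 83.8 CPM and 1300 ± 137 CPM. Regulators of the cycle had 20 tested, 6 higher and 14 lower, with a median of −0.06. *Hnf4a*, a hepatocyte transcription factor, was at 477 ± 40.1 CPM and 453 ± 26.6 CPM. None of these 4 lists held a gene with an unadjusted *p* below 0.05.

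**Figure D5:**
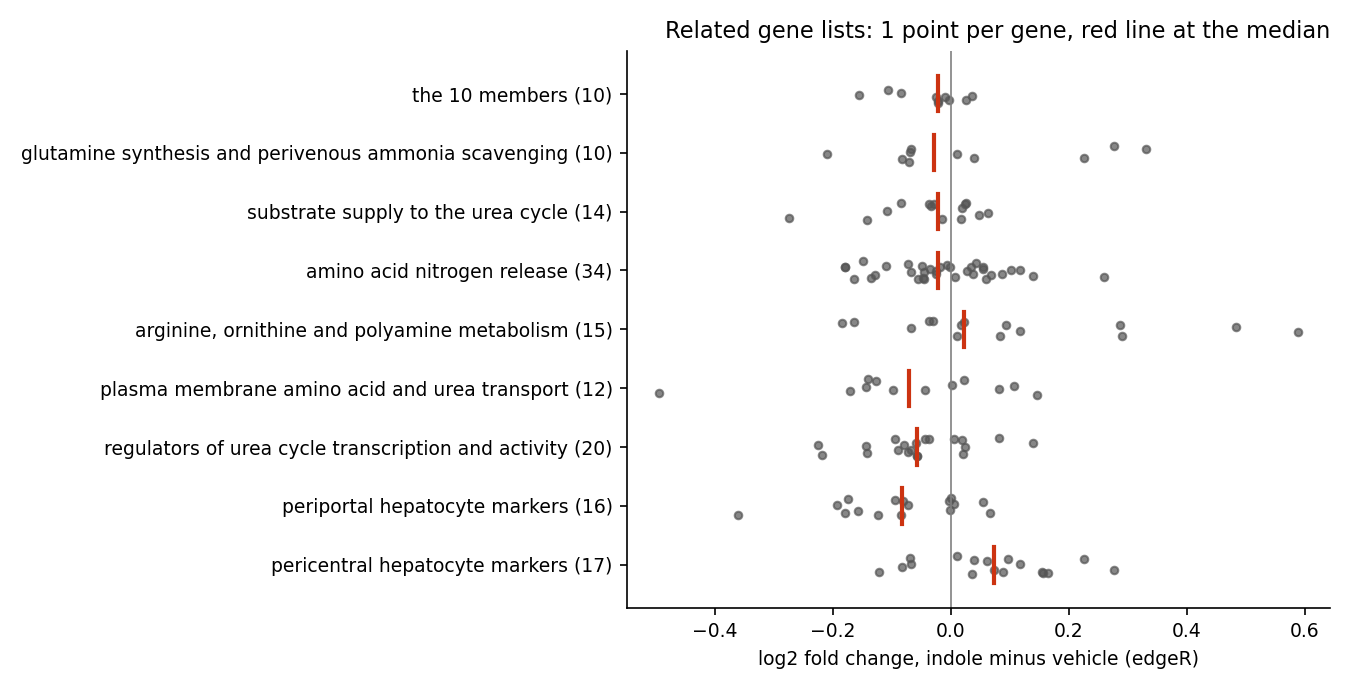
The log2 fold change (indole minus vehicle, edgeR) of each gene tested in the 10 members and in lists of related genes, with the median as a red line and the number of genes in parentheses. List medians lie between −0.08 for periportal and 0.07 for pericentral hepatocyte markers.

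Because the cycle is zoned, markers of both zones were set beside the members. Of 16 periportal markers (*Gls2* among them), 12 were lower and 4 higher in the indole group, with a median of −0.08, and 2 had an unadjusted *p* below 0.05, both lower (2.28% of all genes). These were *Cdh1*, E-cadherin, at 26.4 ± 5.82 CPM and 20.6 ± 4.46 CPM, and *Pigr*, the receptor that moves IgA into bile, at 1706 ± 128 CPM and 1512 ± 104 CPM. Of 17 pericentral markers, 13 were higher and 4 lower, with a median of 0.07, and 1 had an unadjusted *p* below 0.05, higher (1.53% of all genes). This was *Cyp27a1*, a sterol hydroxylase of bile acid synthesis, at 344 ± 13.8 CPM and 385 ± 24.7 CPM. Its unadjusted *p* was 0.0172 in edgeR (adjusted 0.998) and 0.00291 in the exact permutation test. Both medians depended on G2, being −0.01 for periportal and 0.02 for pericentral markers without it. Without G9 they were −0.04 and 0.05, the periportal median was −0.05 without G3, and the pericentral median was 0.13 without G11 and 0.04 without G12 or on library totals. Of 25 alternatives, *Cdh1* kept an unadjusted *p* below 0.05 in 20, *Pigr* in 21 and *Cyp27a1* in all 25. *Cdh1* and *Pigr* lost it without G2. Fewer cells of a zone, less RNA per cell and RNA of other cell types, such as the bile duct, cannot be told apart in bulk liver. Bile duct markers, given below, were also lower.

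Among other cell types, 5 of 5 erythroid genes tested were higher in the indole group. All 5 had an unadjusted *p* below 0.05 in edgeR, as did 1.53% of all genes in that direction. By the exact permutation test *Hba-a1* and *Hbb-bt* did not pass (*p* 0.06 for each), and *Hba-a2* was at only 0.512 CPM with vehicle. Summed erythroid levels ranged from 204 to 384 CPM with vehicle and from 263 to 1093 CPM in the indole group (highest in G5). Endothelial markers were higher for 10 of 10 (2 below 0.05 in edgeR, 1.53% of all genes), summing to 127 to 213 CPM and 154 to 293 CPM. Of these 2, *Clec4g* had an exact permutation *p* of 0.0332 and *Ptprb* one of 0.0874. Bile duct markers were lower for 6 of 6 (1 below 0.05, 2.28% of all genes), summing to 41.6 to 61.2 CPM and 38.9 to 55.7 CPM. That gene, *Krt19*, was at only 2.07 ± 0.761 CPM with vehicle and 1.08 ± 0.433 CPM with indole (unadjusted *p* 0.00405, edgeR). Macrophage markers were higher for 11 of 12, summing to 125 to 298 CPM and 150 to 548 CPM, with the highest sum in G8, and their median of 0.17 was −0.11 without G8. Stellate cell markers were higher for 3 and lower for 7 of 10, summing to 256 to 308 CPM and 169 to 359 CPM. The 1 below 0.05, *Col1a1*, was lower (2.28% of all genes). Of 9 hepatocyte markers, 4 were higher and 5 lower, and the 1 below 0.05, *Ttr*, was higher (1.53% of all genes). Of 12 T and NK cell markers, 1 had enough reads to be tested, and they summed to at most 9.14 CPM in any mouse. No gene of these lists had an adjusted *p* below 0.05, and their part in the values of *Nags* and the other members was not tested.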

How the data were processed

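Liver RNA from 7 vehicle-treated and 7 indole-treated TALLYHO mice was analysed, grouped by the sample labels, which pair no mice. The authors trimmed adapters, used HISAT2 for alignment to GRCm38, retained reads with a unique position and deposited raw counts per gene. The counting tool is not given in the sources used here. The deposited table also gives gene lengths, used for CPM per kb.

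Counts were tested with edgeR 4.0.16 in R 4.3.3 (TMM, filterByExpr, robust quasi-likelihood fit), with Benjamini–Hochberg adjustment over 12653 genes. Exact permutation tests used log2 CPM with a prior count of 2. Near copies came from blastn 2.17.0 against GENCODE M21 transcripts (at least 200 bases and 85% identity). In counts simulated for 12653 genes, 159 of 200 genes changed by 1 on the log2 scale were recovered, with 12 false calls. Genes were drawn independently, and changes as small as those of the members were not simulated.

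Alternatives were DESeq2 1.42.0, limma 3.58.1 voom, other scalings and filters, a non-robust fit, 1 surrogate variable (sva 3.50.0), leaving out each mouse, and leaving out G8 and G11. The analysis of pairs on library totals or without G2, and adding *Gm5424* to *Ass1*, were chosen after seeing the data. The members and lists were chosen with earlier results of these data known. Named genes were the members, *Glul*, in each list the gene with the highest CPM and those with an unadjusted *p* below 0.05, and the 5 genes most like the members. Many marker genes that met this rule enter only in counts or sums.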

Additional observations from a re-analysis of the deposited data

Results flagged for a closer look

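Of 46 gaps between an extreme mouse and its nearest neighbour, each divided by the range of its group of 7, 2 exceeded Dixon's critical value at the 95% level, where chance gives about 1 in 20 (2.3 of 46). *Slc25a13* in the vehicle group stood out because G9, at 355 CPM, lay far above the next mouse at 329 CPM and the lowest at 310 CPM, a gap of 0.59 of the range. The share of reads on the 10 members stood out in the same mouse, at 1.98% against 1.72% in the next and 1.57% in the lowest vehicle-treated mouse, a gap of 0.634 of the range.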

How the results depend on the processing

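Genes with an unadjusted *p* below 0.05 numbered 482, with 386 to 627 when each mouse was left out and 1336 with no filter, which tested more genes. *Nags* was the 1 member among them, with 0 members under limma voom, RLE scaling, upper quartile scaling, no filter, and without G8 and G11, and 0 to 1 when each mouse was left out. It was lost without any of G2, G4, G6, G8, G10, G11, G12, G13 or G14. Its log2 fold change stayed negative throughout, from −0.19 to −0.11 (unadjusted *p* 0.0157 to 0.178). Those of *Cps1* and *Gls2* also stayed negative when each mouse was left out, from −0.20 (without G14) to −0.03 (without G2) for *Cps1* and from −0.13 (without G12) to −0.02 (without G2) for *Gls2*.

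Signs turned for members near 0, and the cause was not tested. When each mouse was left out in turn, log2 fold changes ranged from −0.052 to 0.0151 for *Otc*, −0.0816 to 0.0793 for *Ass1*, −0.0407 to 0.12 for *Asl*, −0.0693 to 0.0366 for *Arg1*, −0.0466 to 0.0313 for *Slc25a13*, −0.0782 to 0.0387 for *Slc25a15*, −0.00071 to 0.0759 for *Glud1*, −0.0269 to 0.0573 for *Glul*, and −0.166 to 0.0111 for the log2 ratio of *Gls2* to *Glul*. Limma voom gave −0.013 for *Asl* and −0.047 for *Glul*, library totals gave −0.0078 and −0.00469, and 1 surrogate variable gave −0.013 for *Asl*. *Slc25a13* was 0.0027 with DESeq2 on the same genes, 0.0017 with DESeq2 on all genes with a read and 0.0027 with RLE. Without G8 and G11, *Arg1* was 0.018, *Slc25a13* 0.036 and *Slc25a15* 0.0038. Of the 45 pairs, 15 passed, against 0 without the 2 farthest mice, 4 on library totals and 5 without G2. Medians of the member groups and of the substrate, nitrogen release and perivenous lists, all within 0.1 of 0, also changed sign when some mice were left out. No paired analysis was possible because the sample labels pair no mice.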
